A study of Mus musculus with 8 samples.

Results

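The Hox genes of clusters A to D were followed in lineage-depleted (Lin-) haematopoietic progenitors from mouse bone marrow, with and without deletion of Ring1b. The members were the rows whose symbol equalled 1 of 38 Hox gene symbols: 36 of the symbols were found, in 39 RefSeq transcripts (11 Hoxa, 11 Hoxb, 8 Hoxc and 9 Hoxd) out of 19353 transcripts and 17551 symbols in all. Hoxc12 and Hoxd1 were not analysed here. All low rows were kept, and 18 of the 39 transcripts stayed under a normalised read count of 20 in every library.

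The cells came from C57BL/6 mice, and every library, controls included, is labelled Ring1a-/- Cdkn2a-/-. In each of 4 contexts there was 1 library labelled Ring1b KO, with OHT in its title, and 1 labelled Ring1b WT, from cells treated with OHT or with EtOH for 72 h; these are called OHT and control libraries below. The contexts were progenitors transduced with HOXA9, with PML-RARa or with MLL-AF9, and NT progenitors, labelled as not transduced, whose 2 table columns are headed Empty. Neither the number of animals behind a library nor the part of Ring1b that is removed is given in the labels, and the controls are labelled Ring1a-/- too, although every library held reads of Ring1, the gene of Ring1a: 23.8 to 77.8 normalised reads with OHT and 109 to 191 in the controls. The Ring1 values neither check nor contradict that label, as whether the transcript is intact was not tested.

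Hox proteins are homeodomain transcription factors. Their genes lie in clusters ordered by number, with the low-numbered (anterior) genes at one end and the high-numbered (posterior) genes at the other, and the Polycomb complexes PRC1 and PRC2 keep many of them silent outside their normal domain. Ring1b (gene Rnf2) and Ring1a (gene Ring1) are the alternative ubiquitin ligases of PRC1. In normal bone marrow, Hoxa and some Hoxb genes are active in stem and progenitor cells and decline as the cells mature, and fusions of MLL such as MLL-AF9 are known to hold Hoxa genes active in leukaemia.

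Depth ranged from 4226751 to 6998223 reads per library, and between 15.1% and 19.99% of all transcripts stood at the lowest entry of their library, which is worth 1 read and may stand for 0 or 1 read. The Rnf2 transcript (NM_011277) did not check the labels: it had 856, 771, 767 and 802 normalised reads in the OHT libraries of HOXA9, PML-RARa, MLL-AF9 and NT, against 896, 990.4, 769.8 and 666 in their controls. The 9 macrophage marker transcripts found, of 10 genes listed, all rose with OHT in limma, and their summed level was 9612 to 18103 in OHT libraries and 1125 to 3347 in controls. The 8 progenitor markers summed to 4226 to 5998 with OHT and 5636 to 7723 in controls, and 1 of them, Myb, fell. Mpo and Gata2 made most of each sum, with 3801 and 3379 of 7584 in the NT control, so the sums mainly follow these genes. The 9 stromal marker transcripts summed to 49.8 to 70.2 with OHT and 14.8 to 187 in controls. The highest sum, 187, was that of the PML-RARa control, where Twist1 alone had 166. Among the stromal markers, Col3a1, Prrx1 and both Pdgfra transcripts never passed 3 reads. Mast cell markers summed to 2146 to 11116 with OHT and 787 to 7993 in controls, endothelial markers to 123 to 246 with OHT and 39.2 to 96.0 in controls, and erythroid markers to 58.8 to 254 with OHT and 50.8 to 393 in controls. Mast cell markers also differed between contexts, with sums of 2657 with OHT and 2356 in the control of HOXA9, 11116 and 7807 in PML-RARa, 2146 and 787 in MLL-AF9, and 10395 and 7993 in NT. The part of any cell mixture in the Hox values was not tested, and in these bulk libraries fewer cells of a type and less RNA per cell cannot be told apart.

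The regions around the starts of 4 members are shown because these genes carry the main patterns: Hoxd13 and Hoxa11 ranged widely between libraries, Hoxb4 was well read in every library, and Hoxa9 is also the introduced gene of one context. Each line gives 250 bases before and 50 bases after the start, as RefSeq lists it on GRCm38.p6, read along the gene's own strand, with every CG in capitals. Hoxd13 lies at chr2:74667975-74668274 (plus strand), Hoxa11 at chr6:52245761-52246060 (minus strand), Hoxb4 at chr11:96318017-96318316 (plus strand) and Hoxa9 at chr6:52227321-52227620 (minus strand).
Hoxd13: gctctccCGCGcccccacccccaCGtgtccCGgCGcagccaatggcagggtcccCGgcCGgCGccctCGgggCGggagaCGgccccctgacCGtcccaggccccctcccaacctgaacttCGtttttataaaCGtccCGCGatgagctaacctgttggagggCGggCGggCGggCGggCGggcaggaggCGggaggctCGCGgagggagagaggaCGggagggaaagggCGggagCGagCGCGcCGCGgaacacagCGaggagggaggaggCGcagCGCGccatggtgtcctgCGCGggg
Hoxa11: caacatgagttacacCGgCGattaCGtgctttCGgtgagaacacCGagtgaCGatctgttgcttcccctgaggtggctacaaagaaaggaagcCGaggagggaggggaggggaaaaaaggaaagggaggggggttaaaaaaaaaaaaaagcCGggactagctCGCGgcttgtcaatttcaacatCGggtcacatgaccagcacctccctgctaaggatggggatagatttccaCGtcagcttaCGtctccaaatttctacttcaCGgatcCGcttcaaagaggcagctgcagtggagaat
Hoxb4: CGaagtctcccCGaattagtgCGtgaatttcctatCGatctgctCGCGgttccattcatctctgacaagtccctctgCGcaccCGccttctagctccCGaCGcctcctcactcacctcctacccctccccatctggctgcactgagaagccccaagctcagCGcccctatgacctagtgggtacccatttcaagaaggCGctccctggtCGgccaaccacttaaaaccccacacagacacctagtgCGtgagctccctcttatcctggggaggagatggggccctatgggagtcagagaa
Hoxa9: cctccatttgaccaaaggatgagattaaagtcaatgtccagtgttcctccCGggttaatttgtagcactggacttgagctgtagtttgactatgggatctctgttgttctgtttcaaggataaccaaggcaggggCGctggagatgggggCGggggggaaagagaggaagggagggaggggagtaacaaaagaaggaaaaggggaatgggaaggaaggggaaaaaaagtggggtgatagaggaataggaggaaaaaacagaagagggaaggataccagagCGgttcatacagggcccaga

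CpG islands, where Polycomb complexes are known to bind, are rich in CG dinucleotides, and the 4 regions differed widely in their CG counts. Hoxd13 held 37, Hoxa11 held 15, Hoxb4 held 14 and Hoxa9 held 4. RefSeq start regions were at hand for 21 of the 36 member genes, 23 regions in all, with a median of 14 CG against 7 over all 32851 mouse start regions, and 19 of the 23 lay above that median. The lowest count was 4, and the highest was 45 at Hoxa13. The letters TGACAG, a MEIS-type motif, were in 2 of the 23 regions on either strand (8.70%, Hoxa2 and Hoxa3), against 19.2% of all regions. The letters TGATTNAT, a PBX–HOX-type motif, were in 2 of 23 (8.70%, Hoxa2 and one of the Hoxd11 regions), against 3.22% of all. These matches are descriptions of the letters and not of binding.

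Levels differed widely within each cluster. A normalised read count is the number of reads on a transcript divided by the library's size factor, and to compare genes it was divided by the transcript's length in kilobases. By the mean per kilobase over the 8 libraries, Hoxa11 was highest at 128, followed by Hoxa5 at 82.3, Hoxa7 at 65.6, Hoxb4 at 42.9, Hoxd13 at 40.0, Hoxa3 at 31.5, Hoxb13 at 31.2 and Hoxa9 at 28.5. The spread over libraries was far wider than the steps of this order: the total normalised count of Hoxa11 ran from 4.14 to 743 and that of Hoxd13 from 2.48 to 357, so that neighbours in the order were not separated, while Hoxb4 kept between 58.9 and 178. In the Hoxc cluster Hoxc9 led with a mean of 12.3 per kilobase, and Hoxc10 followed with 6.34.

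**Figure D1:**
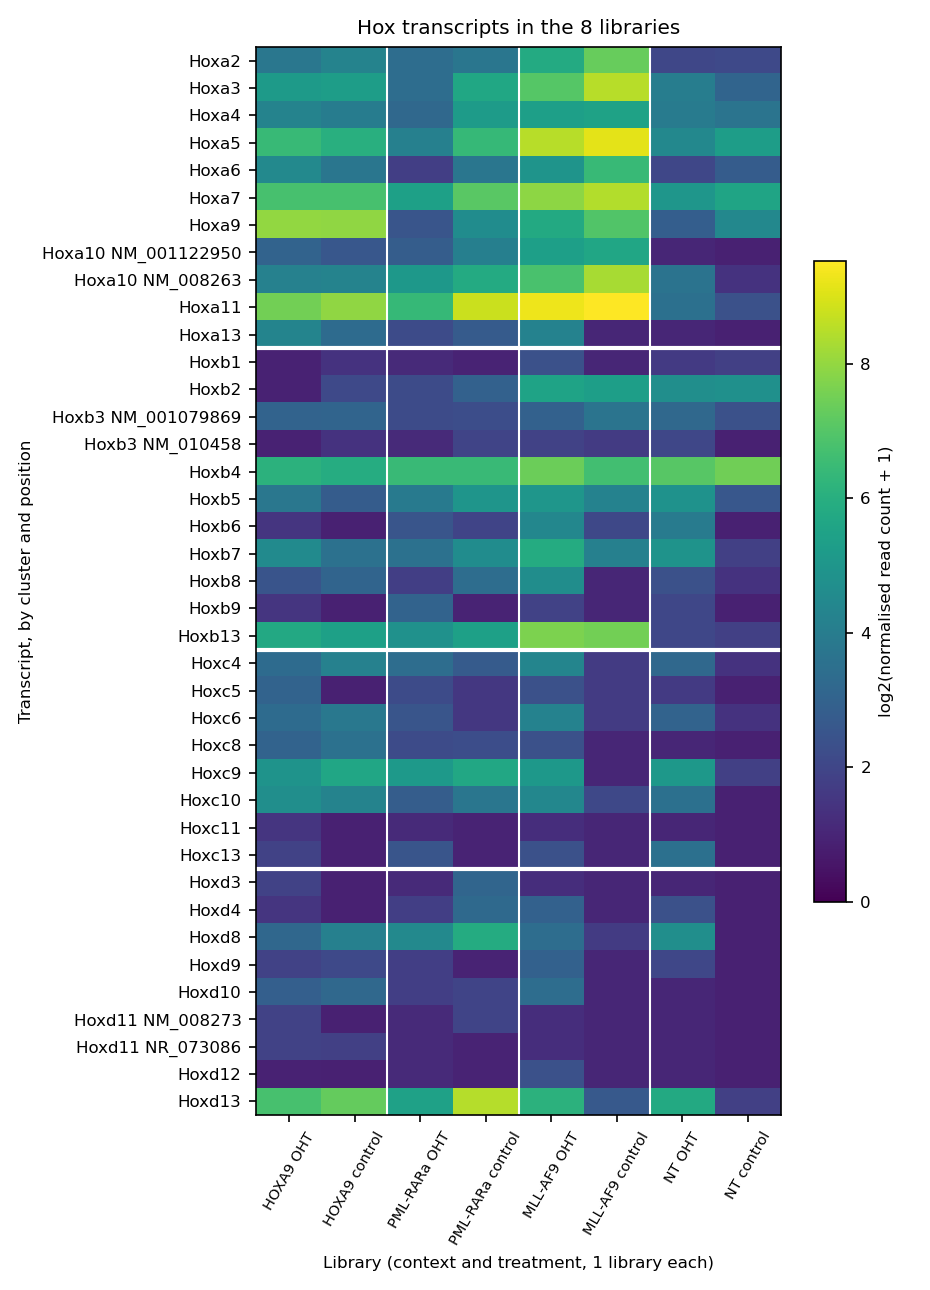
Each cell is the log2(normalised read count + 1) of 1 Hox transcript (rows, by cluster and position) in 1 of the 8 libraries (columns, OHT left of control in each context, NT last). Most Hoxa rows are brightest in the MLL-AF9 libraries, Hoxb4 is bright in every column, and most Hoxc and Hoxd rows stay dark except Hoxc9, Hoxd8 and Hoxd13.

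The low members were Hoxa13, Hoxb1, Hoxb3, Hoxb9, Hoxc4, Hoxc5, Hoxc6, Hoxc8, Hoxc11, Hoxc13, Hoxd3, Hoxd4, Hoxd9, Hoxd10, Hoxd11 and Hoxd12. Their 18 transcripts never exceeded 19.1, and 64 of their 144 values stood at the lowest entry. Hoxb1, 1 of 2 Hoxb3 transcripts, Hoxc11, both Hoxd11 transcripts and Hoxd12 never passed 3 reads, which is the floor used here, so no fold is given for them. Depth allowed only a statement of low reads for these genes, not of their absence. The other 21 transcripts, of 20 genes, reached 20 in at least 1 library.

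The number of members with more than 3 reads differed between libraries. It was 26 of 39 transcripts in the HOXA9 OHT library and 27 in its control, 22 with OHT and 26 in the control in PML-RARa, 28 with OHT and 17 in the control in MLL-AF9, and 22 with OHT and 12 in the control in NT. No Hoxc transcript passed 3 reads in the MLL-AF9 control or in the NT control, against 4 and 5 of 8 in their OHT libraries. Of 9 Hoxd transcripts, 1 passed 3 reads in the MLL-AF9 control and 0 in the NT control, against 5 and 3 in their OHT libraries. The share of all transcripts with more than 3 reads in each library was not counted. Whether these differences are particular to Hox genes was therefore not tested. In every context the control library had more reads in all than the OHT library.

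Summed by cluster, Hoxa reads were most abundant in MLL-AF9, at 1718 normalised reads in the OHT library and 2798 in its control. The sums with OHT and in the control were 759 and 783 in HOXA9, 218 and 863 in PML-RARa, and 118 and 142 in NT. The HOXA9 sums include reads of the introduced Hoxa9. Without Hoxa9 the OHT and control sums were 507 and 533 in HOXA9 and 213 and 839 in PML-RARa. They were then 1663 and 2676 in MLL-AF9 and 112 and 122 in NT. Hoxb sums stood closer together, with OHT and control values of 176 and 141 in HOXA9, 164 and 211 in PML-RARa, 562 and 375 in MLL-AF9, and 255 and 225 in NT. For Hoxc the OHT and control sums were 91.4 and 111 in HOXA9, 67.8 and 79.4 in PML-RARa, 104 and 13.8 in MLL-AF9, and 73.8 and 9.93 in NT. Hoxd sums with OHT and in the control were 137 and 188 in HOXA9, 76.2 and 439 in PML-RARa, 111 and 14.8 in MLL-AF9, and 91.4 and 9.10 in NT.

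As ratios of OHT over control, the Hoxc sum was 7.43 (4.0 to 15.1) in NT and 7.53 (4.15 to 14.8) in MLL-AF9, and the Hoxd sum was 10.05 (5.35 to 20.9) and 7.45 (4.20 to 14.2) in the same contexts. PML-RARa went the other way for Hoxd, 0.173 (0.131 to 0.226), while its Hoxc ratio of 0.854 (0.599 to 1.21) was within counting error of 1. The Hoxa ratio was under 1 in every context and lowest in PML-RARa, at 0.252 (0.214 to 0.296). In MLL-AF9 the Hoxa ratio was 0.614 (0.574 to 0.657). In NT and HOXA9 the Hoxa intervals held 1, with ratios of 0.832 (0.651 to 1.06) and 0.970 (0.883 to 1.07). Without Hoxa9, the introduced gene, the Hoxa ratio in HOXA9 was 0.951 (0.847 to 1.07). The intervals are exact 95% conditional binomial intervals that cover counting error only, and with 1 library a group no ratio has a replicate check. Without its highest member the Hoxb ratio in NT was 2.56 (1.85 to 3.57), against 1.13 (0.948 to 1.35) with it, that member being Hoxb4. Where the controls had few reads the ratios moved with the counting. With the lowest entry counted as 0, the Hoxd ratio was 34.7 (11.5 to 172) in NT and 14.4 (6.65 to 36.9) in MLL-AF9, and the Hoxc ratio in NT was 12.4 (5.70 to 31.9). Without Hoxd13 the Hoxd ratio was 5.65 (2.58 to 14.1) in NT, 4.29 (1.99 to 10.3) in MLL-AF9 and 0.405 (0.254 to 0.627) in PML-RARa.

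**Figure D2:**
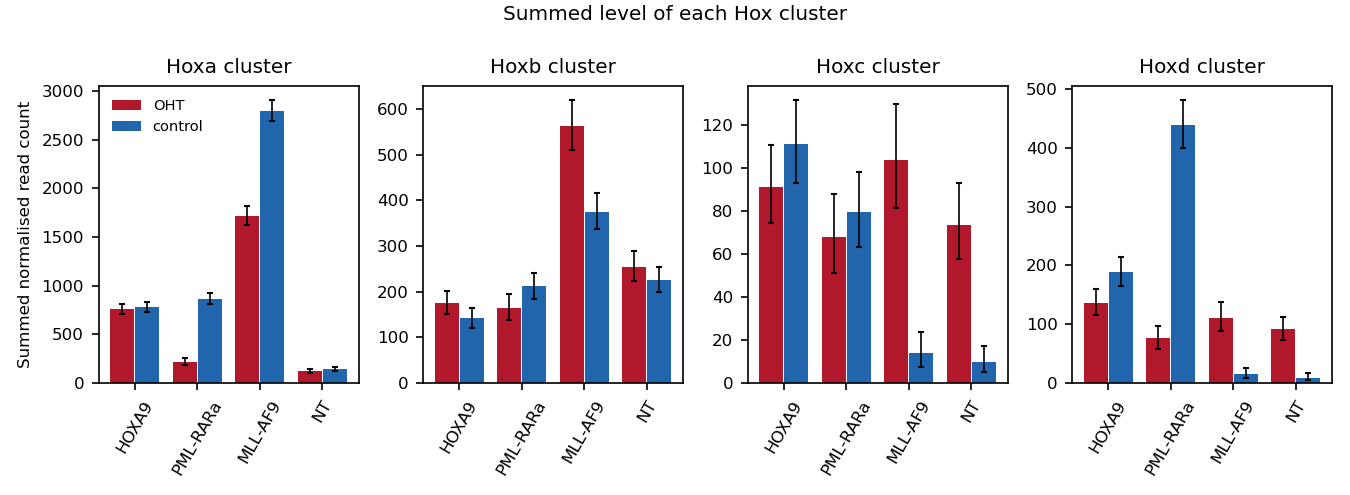
Bars show the summed normalised read count of each Hox cluster (y axis from 0, own scale per panel) in the OHT (red) and control (blue) library of each context, and black lines the exact 95% Poisson interval of the summed reads. Hoxc and Hoxd are at most 14.8 in the MLL-AF9 and NT controls, and the Hoxd sum is highest, at 439, in the PML-RARa control. The Hoxa bars of HOXA9 include reads of the introduced Hoxa9.

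The first question was whether Hox genes stood higher in the transduced contexts than in NT, whatever the treatment. The test was limma on log2(value + 1), with context and treatment as terms over the 8 libraries, on the 10599 transcripts with a mean of at least 20, and Benjamini-Hochberg adjustment over all of them. Of the 39 member transcripts 14 could be tested: Hoxa2, Hoxa3, Hoxa4, Hoxa5, Hoxa6, Hoxa7, Hoxa9, 1 of 2 Hoxa10 transcripts (NM_008263), Hoxa11, Hoxb4, Hoxb7, Hoxb13, Hoxc9 and Hoxd13. Hoxa2, Hoxa4, Hoxa6 and Hoxb7 reached that mean only through the MLL-AF9 libraries. The 3 contrasts share the 2 NT libraries, and fitted differences understate the change of genes with few reads.

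In MLL-AF9 over NT, 4 of the 14 tested members rose and 0 fell, against 2.87% of all transcripts tested. As Hoxa2, Hoxa4, Hoxa6 and Hoxb7 entered the test only through the libraries in which they are high, this count and the members' median log2 difference of 3.08 (all transcripts -0.05) lean towards higher values. Without the filter 4 of 39 rose, against 1.67% of all, and the median was 0.75, against 0.01 for all. In the same contrast 4 of 7 mast cell marker transcripts (Cma1, Fcer1a, Mcpt8 and 1 of 2 Ms4a2 transcripts), the endothelial marker Tek and the progenitor marker Gata2 fell, and their part in the Hox values was not tested. Hoxb13, the most posterior Hoxb gene, had 201 (OHT) and 180.0 (control) normalised reads in MLL-AF9, against 3.12 (OHT) and 2.48 (control) in NT, where it rested on 3 reads each. Its fitted log2 difference was 5.66 ± 0.27 (SE; limma adjusted p = 0.0051), higher in both of 2 treatments.

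Hoxa11, a posterior gene known for its role in limb and uterus, had 636 (OHT) and 743 (control) in MLL-AF9, against 10.4 (OHT) and 4.14 (control) in NT (6.49 ± 0.82; limma adjusted p = 0.032). Both MLL-AF9 libraries lay far above both NT libraries. Because the library kit keeps no strand and 35.0% of the Hoxa11 exon bases are shared with the antisense gene Hoxa11os, reads of these 2 genes cannot be told apart there.

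Hoxa2, an anterior gene that patterns the hindbrain, had 55.9 (OHT) and 161 (control) in MLL-AF9, against 3.12 (OHT) and 3.31 (control) in NT (4.51 ± 0.38; limma adjusted p = 0.012). Hoxa7 had 241 (OHT) and 343 (control) in MLL-AF9, against 31.2 (OHT) and 47.2 (control) in NT (2.88 ± 0.42; limma adjusted p = 0.046, and 0.052 with no filter on low values). For both genes the MLL-AF9 libraries did not overlap the NT libraries, and the share of all transcripts of which this holds was not counted. Hoxa7 shares 28.8% of its exon bases with the antisense gene Hoxaas3, and Hoxa3 shares 19.4% with Hoxaas2, so reads of these pairs cannot be told apart there.

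The other tested Hoxa genes did not pass. Their MLL-AF9 values did not overlap NT, but the share of all transcripts of which this holds was not counted. Hoxa13 was too low to be tested. Hoxa5 had 362 (OHT) and 566 (control) in MLL-AF9, against 20.8 (OHT) and 38.9 (control) in NT (3.94 ± 0.63; limma adjusted p = 0.056). Hoxa3 had 128 (OHT) and 368 (control), against 15.6 (OHT) and 7.45 (control) (4.21 ± 0.82; limma adjusted p = 0.086), and Hoxa6 had 30.0 (OHT) and 85.8 (control), against 3.12 (OHT) and 5.79 (control) (3.29 ± 0.68; limma adjusted p = 0.099). Hoxa10 (NM_008263), with HOXA9 among the posterior genes best known in leukaemia, had 111 (OHT) and 313 (control), against 11.4 (OHT) and 1.65 (control) (5.03 ± 0.91; limma adjusted p = 0.074). The second Hoxa10 transcript, NM_001122950, which shares reads with the first, had 40.9 (OHT) and 48.7 (control), against 1.04 (OHT) and 0.827 (control), and passed only in the fit with no filter. Hoxa9 itself had 54.6 (OHT) and 122 (control), against 6.23 (OHT) and 20.7 (control) (2.72 ± 0.52; limma adjusted p = 0.085). Hoxa4 had 40.9 (OHT) and 44.5 (control), against 14.5 (OHT) and 11.6 (control) (1.64 ± 0.62; limma adjusted p = 0.28).

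In HOXA9 over NT, 2 of 14 tested members rose and 0 fell, against 2.21% of all transcripts tested, with a members' median of 1.71 and a median of -0.04 over all. The 2 were Hoxa9 and Hoxb13. Hoxa9 is the introduced gene, so its rise was given beforehand, and only the call of Hoxb13 informs this count. Without the filter the same 2 of 39 rose and 1 fell, against 1.40% of all, with medians of 0.89 for the members and -0.04 for all. Here 3 of 7 mast cell marker transcripts (Cma1, Fcer1a and 1 of 2 Ms4a2 transcripts) and Tek fell, and their part was not tested. Hoxa9 had 252 (OHT) and 249.9 (control) normalised reads in HOXA9, against 6.23 (OHT) and 20.7 (control) in NT (4.33 ± 0.52; limma adjusted p = 0.034), and reads of the introduced gene and of the endogenous gene cannot be told apart. Hoxb13 had 52.5 (OHT) and 42.3 (control), against 3.12 (OHT) and 2.48 (control) (3.67 ± 0.27; limma adjusted p = 0.013). Hoxa11 had 181 (OHT) and 246 (control), against 10.4 (OHT) and 4.14 (control) (4.79 ± 0.82; limma adjusted p = 0.075). It did not pass. Its groups did not overlap, but for how many of all transcripts this holds was not counted.

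Hoxb2 fell in HOXA9 only in the fit with no filter (-3.22 ± 0.38; limma adjusted p = 0.032). It had 0.905 (OHT) and 3.32 (control) in HOXA9, at 1 and 4 reads, against 24.9 (OHT) and 26.5 (control) in NT. Its value was 3.57 (OHT) and 6.70 (control) in PML-RARa and 45.0 (OHT) and 40.2 (control) in MLL-AF9, so Hoxb2 was low in both treatments of HOXA9 and PML-RARa and higher in both of MLL-AF9 and NT. 58.5% of its exon bases are shared with an antisense gene, Hoxb3os, and reads of these 2 cannot be told apart there. Hoxb4, which expands stem cells when introduced into them, had 69.7 (OHT) and 58.9 (control) in HOXA9, against 134 (OHT) and 178 (control) in NT (-1.26 ± 0.30; limma adjusted p = 0.14), and did not pass.

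In PML-RARa over NT, 0 of 14 tested members passed in limma, against 0.0189% of all transcripts tested, and 5 had an unadjusted p under 0.05, as had 1382 of all 10599. edgeR on the recovered reads called 0 members and 0 of all transcripts, and DESeq2 called 2 members, Hoxa11 and Hoxb13, and 3.49% of all. With no filter 0 of 39 passed, against 0.0155% of all. Hoxb13 had 27.4 (OHT) and 42.1 (control) in PML-RARa, against 3.12 (OHT) and 2.48 (control) in NT (3.21 ± 0.27; limma adjusted p = 0.11). Hoxa11 had 82.1 (OHT) and 433 (control), against 10.4 (OHT) and 4.14 (control) (4.63 ± 0.82; limma adjusted p = 0.22). The members' median difference was 0.96, against -0.09 over all transcripts, and 0.69 against -0.03 with no filter.

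Most of these calls were lost with 1 library fewer. Leaving out any 1 of the 4 libraries of HOXA9 over NT left 0 called members, with 0 to 67 calls over all transcripts in place of 234, while the members' median ran from 1.31 to 2.57. In MLL-AF9 over NT it left 0 without the NT control or the MLL-AF9 control, 2 (Hoxa10 and Hoxb13) without the NT OHT library, and 2 (Hoxa2 and Hoxb13) without the MLL-AF9 OHT library. Calls over all transcripts were then 10 to 132 in place of 304, and the members' median ran from 2.94 to 3.23.

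**Figure D3:**
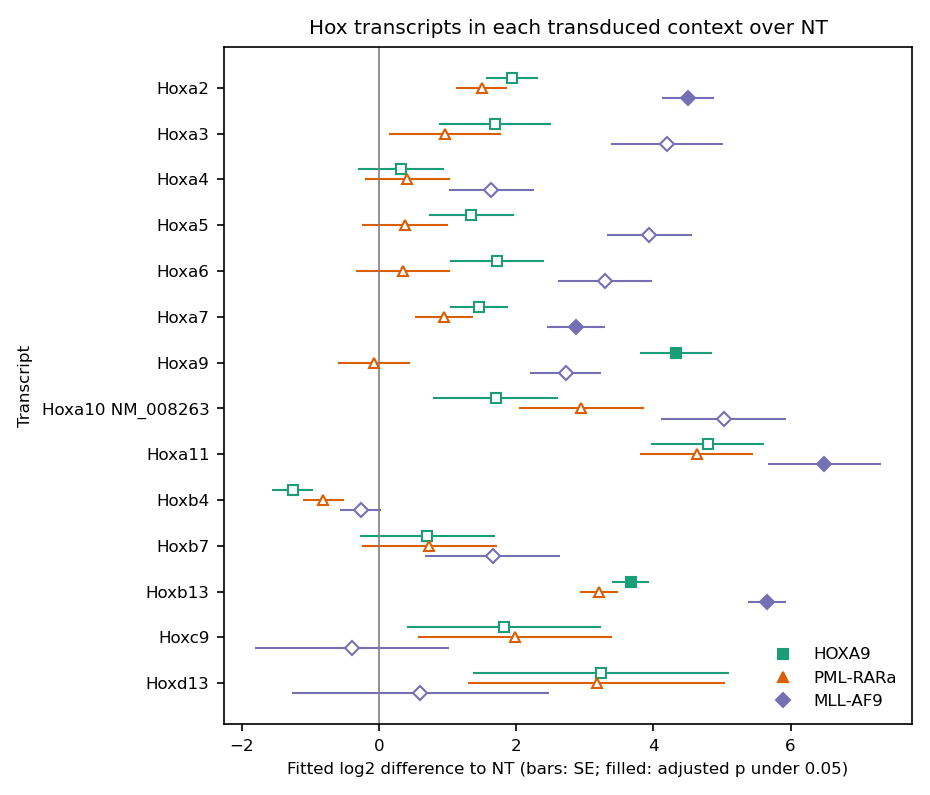
Points are fitted log2 differences to NT (x axis) of the 14 tested Hox transcripts (y axis) in HOXA9 (squares), PML-RARa (triangles) and MLL-AF9 (diamonds), with bars of 1 SE; filled points passed limma at an adjusted p under 0.05. Every Hoxa point of MLL-AF9 is above 0, and Hoxb4 is the one transcript with all 3 points below 0.

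The main question of the design was whether Hox genes change when Ring1b is deleted. Across the 4 contexts, 0 of 14 tested members passed in limma, against 13.9% of all transcripts tested (1471 of 10599). The count over all transcripts fell to 26 when the NT pair was left out and to 0 when any of the other pairs was, so the calls of this fit needed all 4 pairs. 1 member had an unadjusted p under 0.05, as had 4023 of all 10599. edgeR and DESeq2 called 0 members each, against 2235 and 3130 of all transcripts, and without the filter 0 of 39 passed, against 1.83% of all. The member with that p was Hoxa9, at -1.21 ± 0.37 (limma adjusted p = 0.086, and 0.068 to 0.61 over 11 alternatives). Over the 14 tested members the median log2 difference was -0.43, against -0.03 over all transcripts. It was 0.16 without the PML-RARa pair, and with no filter it was 0.22 over 39 members, against 0.01 over all.

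Within contexts many members differed between OHT and control, and not in 1 direction. A transcript is counted here where the higher library of a pair had at least 20 normalised reads and the pair differed at least 2-fold with a pseudocount of 1. With 1 library a group there is no test, and the share of all transcripts that meet the same rule is the background.

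In NT, 10 members reached 20, of which 5 stood higher with OHT (background 13.5%) and 1 stood lower (8.64%). In MLL-AF9, 6 of 20 stood higher (14.5%) and 5 lower (15.6%). In PML-RARa, 0 of 14 stood higher (8.83%) and 10 lower (13.5%). In HOXA9, 1 of 12 stood higher (9.04%) and 0 lower (6.1%), the 1 being Hoxb7 at 2.10-fold (1.03 to 4.46).

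**Figure D4:**
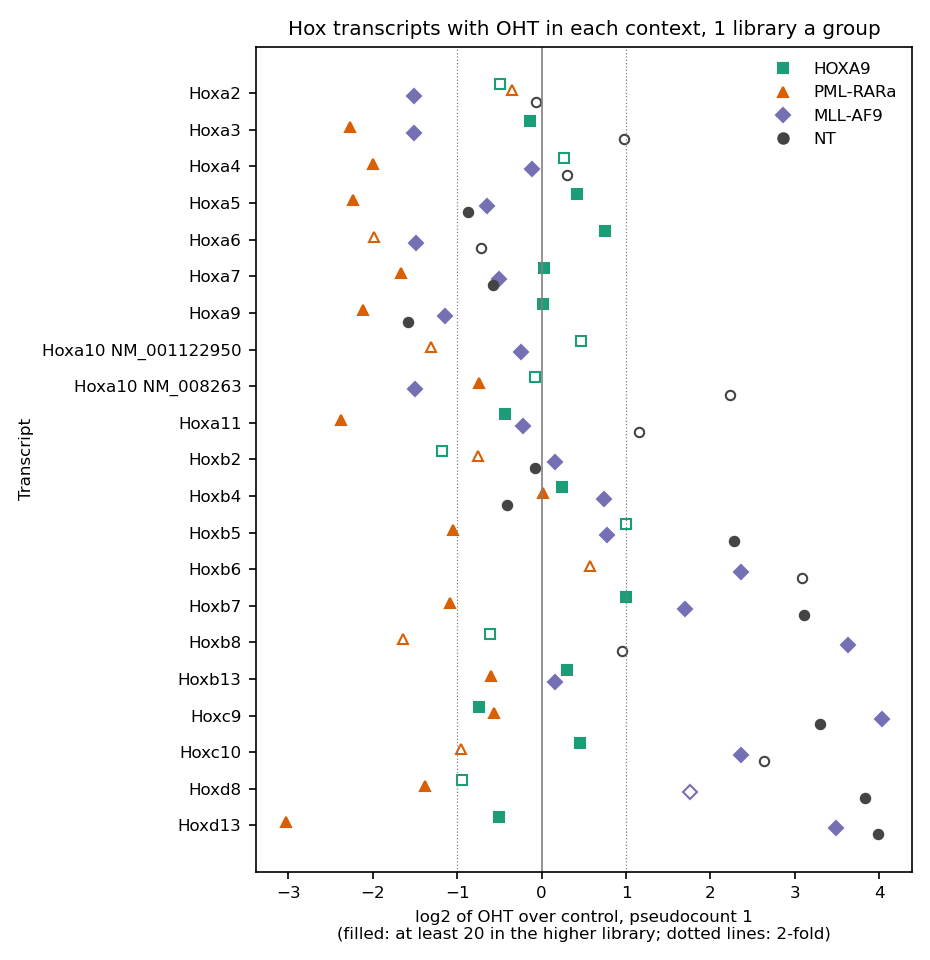
Points are the log2 ratio of OHT over control with a pseudocount of 1 (x axis) for the 21 Hox transcripts that reach 20 in a library (y axis), in HOXA9 (squares), PML-RARa (triangles), MLL-AF9 (diamonds) and NT (circles), 1 library a group; hollow points have under 20 in both libraries, and pairs with at most 3 reads in both are not drawn. From Hoxb5 to Hoxd13 the NT points lie right of 0, and in PML-RARa 10 filled triangles lie left of the 2-fold line.

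Hoxc9, Hoxc10, Hoxd8 and Hoxd13 were the only members of the Hoxc and Hoxd clusters to reach 20 in any library. Hoxd13, which shapes digits and genitalia in the embryo, had 109, 42.8, 69.6 and 54.0 normalised reads in the OHT libraries of HOXA9, PML-RARa, MLL-AF9 and NT, against 154, 357, 5.29 and 2.48 in their controls. The OHT libraries thus ran from 42.8 to 109. The 4 controls ran more widely, from 2.48 to 357, with values both above and below that range. OHT over control was 21.8-fold (7.05 to 109) in NT, where the control had 3 reads, and 13.1-fold (5.28 to 42.2) in MLL-AF9. It was 0.120 (0.0828 to 0.169) in PML-RARa and 0.703 (0.554 to 0.889) in HOXA9.

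Hoxc9, a gene of the trunk, had 29.0, 34.5, 32.7 and 33.2 with OHT in HOXA9, PML-RARa, MLL-AF9 and NT, against 49.0, 51.7, 1.06 and 2.48 in the controls. Its OHT libraries were nearly level, and its controls formed a high and a low pair. In MLL-AF9, where the control stood at the lowest entry, Hoxc9 was 10.3-fold higher with OHT if 3 reads are counted in the control. With 1 control read the counting interval was 5.04 to 1272. In NT it was 13.4-fold (4.19 to 68.4) higher, on 3 control reads.

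Hoxd8 had 8.14, 21.4, 9.55 and 24.9 with OHT, against 16.6, 57.4, 2.12 and 0.827 in the controls of HOXA9, PML-RARa, MLL-AF9 and NT. In NT it was 10.05-fold higher with OHT if 3 reads are counted in the control, which stood at the lowest entry. In PML-RARa it stood at 0.373 of the control (0.207 to 0.641). Hoxc10 had 25.3, 5.95, 20.5 and 10.4 with OHT in the same order of contexts, against 18.3, 12.4, 3.18 and 0.827 in the controls, with a ratio of 6.44 (1.82 to 34.7) in MLL-AF9. Hoxc10 in NT was under the minimum of 20.

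In the Hoxb cluster, Hoxb5, Hoxb6, Hoxb7 and Hoxb8 differed 2-fold in at least 1 context, and Hoxb2, Hoxb4 and Hoxb13 in none. Hoxb7 had 22.6, 10.7, 57.3 and 29.1 with OHT in HOXA9, PML-RARa, MLL-AF9 and NT, against 10.8, 23.9, 16.9 and 2.48 in the controls. It stood higher with OHT in 3 contexts, at 2.10-fold (1.03 to 4.46), 3.38-fold (1.86 to 6.44) and 11.7-fold (3.62 to 60.2) in HOXA9, MLL-AF9 and NT, and lower in PML-RARa, at 0.448 (0.184 to 0.992). Hoxb5 had 12.7, 14.3, 31.4 and 28.1 with OHT in the same order of contexts, against 5.81, 30.6, 18.0 and 4.96 in the controls, with ratios of 5.65 (2.29 to 16.7) in NT and 0.466 (0.219 to 0.930) in PML-RARa.

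Hoxb6 had 1.81, 4.76, 20.5 and 14.5 with OHT, against 0.830, 2.87, 3.18 and 0.827 in the controls of HOXA9, PML-RARa, MLL-AF9 and NT. Its ratio in MLL-AF9 was 6.44 (1.82 to 34.7). Hoxb8, known for immortalising myeloid progenitors when overexpressed, had 4.52, 2.38, 24.6 and 4.16 with OHT in the same contexts, against 7.47, 9.57, 1.06 and 1.65 in the controls. In MLL-AF9, with the control at the lowest entry, it was 7.73-fold higher with OHT if 3 reads are counted in the control. With 1 control read the counting interval was 3.66 to 966.

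Hoxb4 had 69.7, 88.1, 166 and 134 with OHT in HOXA9, PML-RARa, MLL-AF9 and NT, against 58.9, 87.1, 99.5 and 178 in the controls, and no pair differed 2-fold. For Hoxb13 the ratios were 1.24 (0.836 to 1.84) in HOXA9, 0.650 (0.375 to 1.10) in PML-RARa and 1.11 (0.887 to 1.40) in MLL-AF9. All 3 intervals hold 1.

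**Figure D5:**
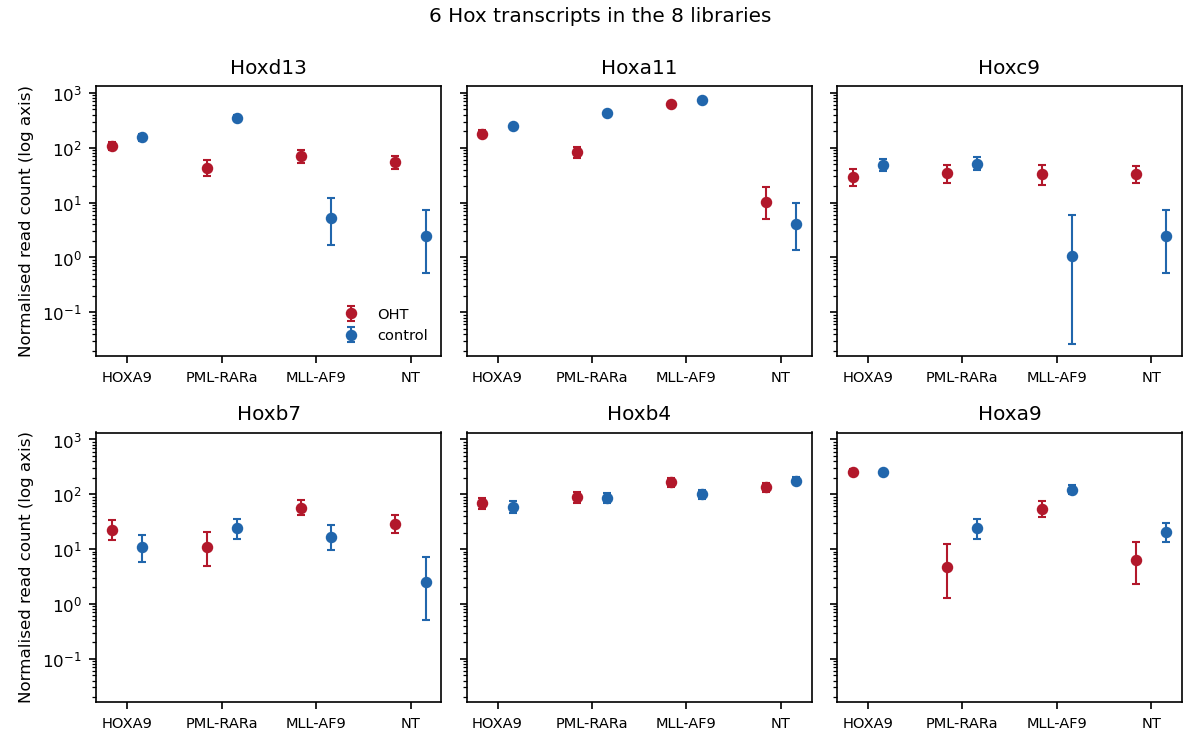
Normalised read counts (log y axis) of Hoxd13, Hoxa11, Hoxc9, Hoxb7, Hoxb4 and Hoxa9 in the OHT (red) and control (blue) library of each context, with exact 95% Poisson intervals that cover counting error only. Hoxc9 lies between 29.0 and 34.5 in all 4 OHT libraries, while its controls lie at 49.0 and 51.7 or at 1.06 and 2.48.

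Among pairs with at least 20 in the higher library, the Hoxa transcripts that differed 2-fold stood lower with OHT, and 0 stood higher. In NT 1 stood lower and 2 stayed within 2-fold, against 8.64% lower over all transcripts. In PML-RARa 6 stood lower and 1 stayed within (13.5% lower over all), and in MLL-AF9 5 and 5 (15.6%). In HOXA9 0 stood lower and 6 stayed within (6.1%). Under the minimum of 20, Hoxa3 (15.6 with OHT against 7.45), Hoxa10 (NM_008263, 11.4 against 1.65) and Hoxa11 (10.4 against 4.14) stood higher with OHT in NT, on 2 to 15 reads a library. Hoxa13, also under 20, had 17.7 with OHT against 1.06 in the control in MLL-AF9, on 13 reads with OHT. That is 5.58-fold higher if 3 reads are counted in the control, and with 1 control read the counting interval was 2.52 to 712. In HOXA9 Hoxa13 had 19.0 against 9.13, a ratio of 2.08 (0.959 to 4.78) whose interval holds 1. Hoxa9 met the rule in 3 contexts. It had 252, 4.76, 54.6 and 6.23 with OHT in HOXA9, PML-RARa, MLL-AF9 and NT, against 249.9, 23.9, 122 and 20.7 in the controls. The ratio was 0.199 (0.0503 to 0.576) in PML-RARa, 0.448 (0.305 to 0.647) in MLL-AF9 and 0.301 (0.101 to 0.753) in NT, on 4 to 115 reads a library, and 1.01 (0.855 to 1.19) in HOXA9, where introduced reads are counted too.

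Hoxa11 had 181, 82.1, 636 and 10.4 with OHT, against 246, 433, 743 and 4.14 in the controls of HOXA9, PML-RARa, MLL-AF9 and NT. Only the PML-RARa pair differed 2-fold, at 0.190 (0.145 to 0.245). The antisense Hoxa11os went with it, at 95.02, 38.1, 247 and 11.4 with OHT and 143, 319, 292 and 3.31 in the controls, and shares 30.9% of its exon bases with Hoxa11.

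In PML-RARa the other lower Hoxa genes were Hoxa3 at 9.52 with OHT against 49.8, Hoxa4 at 8.33 against 36.4, Hoxa5 at 16.7 against 82.3 and Hoxa7 at 41.7 against 135 in the control. Their ratios ran from 0.191 to 0.309. In the same pair Hoxa10 (NM_008263) stayed within 2-fold, at 33.3 with OHT against 56.5, as did Hoxb4, Hoxb13 and Hoxc9. Hoxa2 (9.52 against 12.4), Hoxa6 (2.38 against 12.4) and Hoxa10 (NM_001122950, 5.95 against 16.3) were under 20 there.

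In MLL-AF9 the lower genes were Hoxa2 at 55.9 with OHT against 161, Hoxa3 at 128 against 368, Hoxa6 at 30.0 against 85.8, Hoxa9 as above and Hoxa10 (NM_008263) at 111 against 313 in the control. Their ratios ran from 0.348 to 0.448. Hoxa5 (362 against 566), Hoxa7 (241 against 343), Hoxa4 (40.9 against 44.5) and Hoxa11 stayed within 2-fold there. In HOXA9, Hoxa3, Hoxa5, Hoxa6, Hoxa7, Hoxa9 and Hoxa11 reached 20 and none differed 2-fold. Hoxa3 had 35.3 with OHT against 39.0, Hoxa5 86.0 against 63.9, Hoxa6 21.7 against 12.5 and Hoxa7 109 against 106. The remaining Hoxa values were 12.7 and 18.3 for Hoxa2, 18.1 and 14.9 for Hoxa4, and 17.2 and 18.3 for Hoxa10 (NM_008263), with OHT and in the control of HOXA9. Hoxa10 (NM_001122950) had 7.24 and 4.98.

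In the authors' deposited tables, which compare the same single libraries, an unadjusted p under 0.05 was given to 4 of 39 members in NT (Hoxb7, Hoxc9, Hoxd8 and Hoxd13), against 2.91% of all transcripts. The authors' deposited tables list 0 in HOXA9 (1.82% of all), 3 in PML-RARa (Hoxa5, Hoxa11 and Hoxd13; 2.32%) and 2 in MLL-AF9 (Hoxc9 and Hoxd13; 4.16%). Such a p compares 2 libraries and not the conditions.

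Cofactors and regulators of Hox genes were taken from lists. Of the HOX cofactor list (PBX, MEIS, PKNOX and TGIF families), 0 of 7 tested transcripts passed with OHT across contexts, with a median of 0.02. Meis1, the HOXA9 cofactor best known in leukaemia, had 3.62, 41.7, 49.1 and 69.6 with OHT in HOXA9, PML-RARa, MLL-AF9 and NT, against 8.30, 12.4, 51.9 and 22.3 in the controls. It was lowest in both HOXA9 libraries. Pbx3 had 181, 156, 252 and 241 with OHT in the same contexts, against 123, 146, 470.1 and 173 in the controls.

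Of 13 tested transcripts of Hox regulators (MLL complex partners and Polycomb genes among them), 0 rose and 2 fell with OHT, with a median of -0.05. Ring1 had reads in every library, all labelled Ring1a-/-, and whether its transcript is intact was not tested. It had 47.1, 23.8, 77.8 and 43.6 with OHT in HOXA9, PML-RARa, MLL-AF9 and NT. The controls had 191, 179.9, 166 and 109 (-1.81 ± 0.33, limma adjusted p = 0.040). Suz12, a core subunit of PRC2, had 44.3, 26.2, 34.1 and 23.9 with OHT, against 55.6, 50.7, 65.6 and 52.9 in the controls (-0.82 ± 0.17; limma adjusted p = 0.046). Both were lower with OHT in 4 of 4 contexts.

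Kmt2a, which encodes MLL, had 1305, 1272, 1157 and 946 with OHT, against 907, 777, 1605 and 1141 in the controls, and part of these reads may come from the introduced fusion in MLL-AF9. The 2 Men1 transcripts never passed 3 reads, and Cdx1 stayed at 0.827 to 2.73. Cdx2, a posterior activator of Hox genes in the embryo, had 8.14, 9.52, 8.19 and 5.20 with OHT, against 27.4, 7.65, 1.06 and 0.827 in the controls. Cdx4 was not analysed here. Of 10 tested transcripts of genes beside the clusters, 0 rose and 1 fell, Hnrnpa1 (NM_001039129), with 86.9, 48.8, 73.7 and 45.7 with OHT, against 125, 139.7, 126 and 108 in the controls (-1.002 ± 0.20; limma adjusted p = 0.044). Hoxa11os was the one noncoding transcript tested, and it did not pass (-0.58 ± 0.75; limma adjusted p = 0.60).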

How the data were processed

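RNA of 8 libraries was sequenced after TruSeq RNA v2 preparation, which keeps no strand, per the labels' protocols. Per the submitters' processing notes, TopHat and DESeq were used with build mm9, versions not given in the sources used here. The deposited values are the authors' normalised read counts per RefSeq transcript (signal), with ratios, log2 ratios and p-values of the authors' own 1-against-1 comparisons. Every value was a whole multiple of its column's lowest entry (100% of values within 0.02), so whole reads were recovered; the authors' count of 0 and 1 cannot be told apart. Replicates within a context do not exist: tests across contexts treat the 4 pairs as replicates, and p-values measure only the spread between these libraries.

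Computed here: limma 3.58.1 (R 4.3.3) on log2(value + 1) as in the report; edgeR 4.0.16 and DESeq2 1.42.0 on recovered reads as alternatives; exact 95% Poisson and conditional binomial (Clopper-Pearson) intervals with SciPy. Other pseudocounts, filters, scalings and left-out libraries were alternatives. The fits were tested on simulated data. Transcript lengths and exon overlaps came from GENCODE vM21. Members with 20 or more in a library are named with all values, the rest by range; of the cofactor, regulator and flanking lists, genes that passed in the OHT fit, or differed 2-fold in 3 contexts, and 8 chosen ones are named, except 1 that is not reported here. Members, lists and tests were chosen with earlier results of these data known. 0 columns of per-sample values were left unused.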

Additional observations from a re-analysis of the deposited data

Results flagged for a closer look

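Hoxb13 in PML-RARa stood apart from the other 3 contexts in its OHT over control log2 ratio, at -0.60, against 0.30 in HOXA9, 0.15 in MLL-AF9 and 0.24 in NT (gap over range 0.836, by Dixon's test at the 95% level). In NT both libraries had 3 reads. Chance flags about 1 in 20 such groups, and 14 member transcripts were screened, of which 1 was flagged.

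4 members moved in opposite directions in NT and PML-RARa, each at least 2-fold, with 1 pair of libraries per context, so the difference was not tested. Over all transcripts 13.5% stood at least 2-fold higher in NT and 13.5% lower in PML-RARa. The share that did both was not counted. The log2 ratio in NT minus that in PML-RARa was 7.01 for Hoxd13, 4.20 for Hoxb7 and 3.33 for Hoxb5. Their NT controls held only 3, 3 and 6 reads. For Hoxd8 it was 5.21 with the pseudocount, but its NT control stood at the lowest entry, so this is not a measured difference. The summed stromal markers of NT were 61.3 with OHT and 40.5 in the control. Those of PML-RARa were 70.2 with OHT and 187 in the control. Twist1 alone had 166 of that 187, while Col1a1 had 10.5 there and 29.0 in the NT control. The part of these markers in the Hox values was not tested.

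The antisense gene Hoxa11os, which is no member, had a value of 319 in the PML-RARa control, against 3.31 in the NT control. Its reads can also come from Hoxa11.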

How the results depend on the processing

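Limits: each group is 1 library, low members rest on a few reads, and the lowest entry may be 0 or 1 read. Of the Hox counts and cluster ratios, 84 of 120 values under an alternative stayed within 1.5 times the count or within the counting interval and 36 did not.

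With OHT, 0 of 14 members passed under every alternative run, including the fit without the context as a replicate block (0 members, 999 of all transcripts). Over all transcripts the count of 1471 became 354 with no filter, 2235 in edgeR, 3130 in DESeq2, and 0 to 26 without 1 of the pairs (26 without NT, 0 without any of the others, so that 0 members was then given and shows nothing of stability). HOXA9 over NT (2 members) gave 4 in DESeq2 (9.61% of all transcripts) and 0 without any 1 library. PML-RARa over NT (0) gave 2 in DESeq2 (3.49% of all). MLL-AF9 over NT (4) gave 9 in DESeq2 (9.68% of all) and 0 to 2 without 1 library (0 without either control, 2 without either OHT library). The leave-one-out fits of these contrasts were added after the data were seen.

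Within contexts, a minimum of 10 gave 10 of 17 members higher in NT (1833 of 12259 transcripts) and 2 of 21 in HOXA9 (1188 of 12239). A minimum of 50 gave 1 of 2 higher (1100 of 9216) and 0 lower (696) in NT, 0 of 7 higher in HOXA9 (741 of 9212), 5 of 8 lower in PML-RARa (1149 of 9255) and 2 of 12 higher in MLL-AF9 (1227 of 9171). A pseudocount of 10 gave 0 of 10 lower in NT (767 of 10826) and 0 of 12 higher in HOXA9 (842 of 10884), and centring the ratios gave 0 of 12 higher in HOXA9 (970 of 10884). Without its highest member, a choice added later, the log2 cluster ratio for Hoxa was 0.11 (HOXA9), -1.67 (PML-RARa) and -0.93 (MLL-AF9), 1.35 for Hoxb in NT and -0.71 in PML-RARa, and -1.30 for Hoxd in PML-RARa. With the lowest entry as 0, Hoxd was 5.12 in NT and 3.84 in MLL-AF9. The causes were not tested. Of 263 values for single members, 211 kept their direction and side of the threshold, 22 lost the call, 14 gained one, 16 moved and 0 reversed.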

Other observations

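Evx1, a homeobox gene at the posterior end of the Hoxa cluster, was at 32.6 in the HOXA9 OHT library and 2.49 in its control, and at 0.827 to 1.36 in the other 6 libraries. It was chosen after its values were seen, and it rests on 1 library. Evx2, which lies beside Hoxd13, never passed 3 reads. The row of the microRNA Mir196b, whose gene lies in the Hoxa cluster, had 1.81, 1.19, 6.82 and 1.04 with OHT in HOXA9, PML-RARa, MLL-AF9 and NT, against 5.81, 12.4, 28.6 and 2.48 in the controls. It too was chosen after its values were seen, and stood lower with OHT in HOXA9, PML-RARa and MLL-AF9, while both NT libraries were at or under 3 reads. It was too low to enter the test.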
